A study of Sus scrofa with 16 samples.

Results

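The family of miR-148 and miR-152 is a set of microRNAs (miRNAs, short RNAs that lower the output of the mRNAs they pair with) made from separate genes. Its members were selected by name, as every row of the count table called ssc-miR-148a, ssc-miR-148b or ssc-miR-152, with or without an arm suffix. The family was proposed because of its measured levels across the phases of the estrous cycle, so the comparison of phases is given as a description without a test. The rule found 3 of the 1940 rows of the table, of which 1724 are predicted miRNAs and the rest known ones, and these 3 were ssc-miR-148a-5p, ssc-miR-148b-5p and ssc-miR-152. They are written miR-148a, miR-148b and miR-152 from here on, and all 3 passed the filter on low counts.

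Each of 16 Canadian Large White sows gave 1 small RNA library of the ovary, and there were 4 groups of 4 sows. Ovaries of the LH sows (high fecundity) and of the LL sows (low fecundity) were taken in the luteal phase, on day 14 counted from the start of estrus. Those of the FH sows (high fecundity) and FL sows (low fecundity) were taken in the follicular phase, on day 20. The labels name no treatment, and high or low fecundity is a phenotype of the sows, not a single allele. In the luteal groups fecundity went together with parity, which was higher in every LH sow than in any LL sow. The study compared LH vs. LL and FH vs. FL to find RNAs that differ between sows of high and low fecundity within a phase.

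The 3p arms of the members share a seed, the bases near the 5′ end of a miRNA by which it finds its targets, so they can act on the same mRNAs. They are known to target the DNA methyltransferase DNMT1, and miR-148a is known to target the cholesterol exporter ABCA1. In the ovary the corpus luteum takes up lipoprotein cholesterol to make progesterone, whereas the follicular phase is the time of growing follicles and estrogen. In the RefSeq annotation of Sscrofa11.1, MIR148B lies in COPZ1 and MIR152 overlaps its paralog COPZ2, genes for subunits of the vesicle coat, while MIR148A overlaps no listed gene.

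Which arm of each hairpin the rows hold cannot be told from the table. The names of miR-148a and miR-148b carry the suffix 5p, miR-152 carries none, and there are 0 rows with the suffix 3p for the family. Among all known miRNAs 72 names end in 5p and 8 in 3p. For 8 miRNAs both arms are listed, and in 4 of these the arms have the same counts in every library. No other row has the same counts as a member, so the members are not copies of another row.

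Predicted miRNAs with the seed were looked for because they show how closely other entries of the table come to the family. The seed CAGUGCA, which the 3p arms of the family share, stands at bases 2 to 8 of 7 of the 1700 predicted mature sequences read from the study's list (0.412%). The count table has 1724 predicted miRNAs, so not all of them were searched. The 7 are listed at 3 places in the genome. The 4 sequences that differ are printed 5′ to 3′ with the seed in capitals, since their names alone do not show the likeness.
NovelmiRNA-76: uCAGUGCAggacagaacugg
NovelmiRNA-136: uCAGUGCAcagcagaacu
NovelmiRNA-302: uCAGUGCAcagcagaacuu
NovelmiRNA-680: uCAGUGCAcagcagaacuuu
NovelmiRNA-76 lies at chr6:43222120-43222176 on the plus strand of Sscrofa10.2. It had 178 to 384 counts in 7 libraries (LH3, LH4, LL1, LL3, FH1, FH3 and FL1), or 8.76 to 24.5 CPM, and 0 counts in the other 9. NovelmiRNA-680 lies at chr1:80176665-80176730 on the plus strand, and NovelmiRNA-136 and NovelmiRNA-302 are shorter entries of the same place. These 3 had 5 to 11 counts in 1 to 3 libraries each, and a further 3 entries with their sequences and their counts lie on an unplaced scaffold. All 7 were thus present at a small part of the level of the least abundant member. CPM here are counts per 1000000 counts of the tested miRNAs, scaled with edgeR's TMM factors, which correct for a few very abundant miRNAs taking up the reads of a library.

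Library totals ranged from 8998496 to 37194836 counts. The TMM factors ranged from 1.19 to 1.74 in LL and from 0.670 to 1.23 in the other groups. Over 200 known miRNAs, libraries correlated with the mean of the other libraries of their own group at r = 0.908 to 0.989, and 8 of the 16 were more like the mean of another group, 3 of them in the other phase. LH4, FL2 and FL4 stood apart in miR-34c, a miRNA of ciliated and tubal epithelium, with 21379, 7335 and 15224 CPM against 18.3 to 195.7 CPM in the other libraries. Of the markers of the gonad, miR-202 had 64.5 to 3843 CPM, but miR-383 was at 0 to 5.88 CPM in every library.

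The members differed widely in abundance. miR-148a was the most abundant, with 8220166 counts over all libraries (2.71% of all counts, rank 8 in the table), followed by miR-152 with 2005595 counts (0.662%, rank 22) and miR-148b with 489843 counts (0.162%, rank 41). Together the members took 3.17 to 6.85% of each LH library and 2.65 to 5.28% of each LL library, against 1.76 to 2.69% for FH and 1.81 to 4.44% for FL. miR-148a made up 81.7 to 88.4% of these counts in LH and 34.5 to 76.8% in LL. In the follicular phase it made up 68.4 to 77.2% in FH and 52.0 to 88.9% in FL. In LL1 miR-152, with 54.2% of the family's counts, was more abundant than miR-148a, which was the case in no other library. The 95% Wilson intervals of the members' shares of a library reached at most 0.0114 percentage points to either side and cover counting error only.

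**Figure D1:**
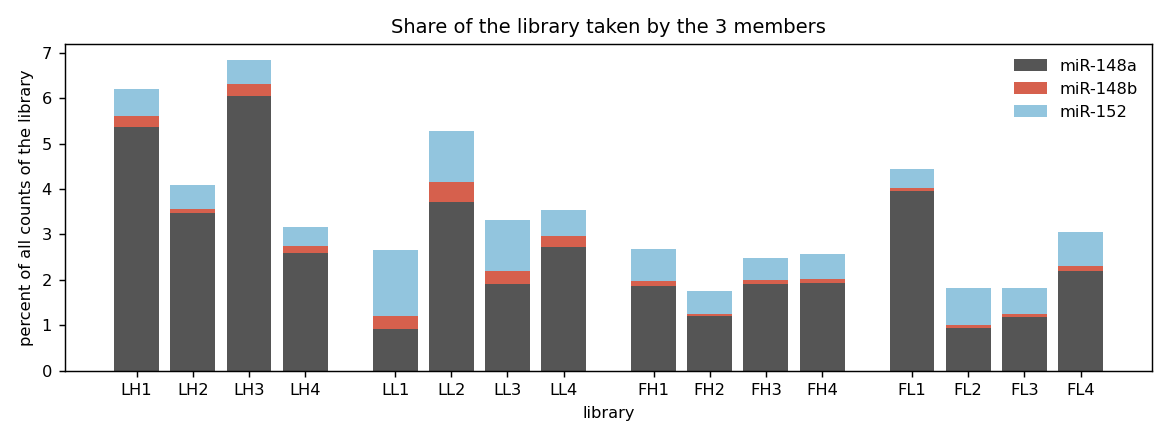
Stacked bars give the percent of all counts of each library (vertical axis) taken by miR-148a, miR-148b and miR-152, for the 16 libraries in order of group. The LH libraries held 3.17 to 6.85%, mostly miR-148a, and in LL1 miR-152 took 54.2% of the family's counts.

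miR-148a was highest in LH. Its level was 50327, 37582, 71186 and 28360 CPM in LH1 to LH4, and 5244, 27082, 12681 and 22977 CPM in LL1 to LL4. All 4 LL sows lay below the lowest LH sow, LH4, by a narrow margin in LL2. In the follicular phase the level was 19721, 17938, 23577 and 26217 CPM in FH1 to FH4, and 53301, 8315, 15575 and 17953 CPM in FL1 to FL4. The FH sows lay close together, and FL1 stood far above the other FL sows and within the range of LH. The means were 46864 ± 18548 CPM in LH, 23786 ± 20099 in FL, 21863 ± 3737 in FH and 16996 ± 9903 in LL (SD, n = 4). Neighbours in this order overlapped: FL1 lay within LH, FL spanned the whole of FH, and FH lay within the range of LL.

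miR-148b was higher in the luteal than in the follicular groups. It was at 2187, 1096, 3003 and 1666 CPM in LH1 to LH4, and at 1733, 3316, 1838 and 2063 CPM in LL1 to LL4. The luteal groups overlapped, with LH2 the lowest of these 8 sows and LL2 the highest. In the follicular phase it was at 1354, 809, 1084 and 970 CPM in FH1 to FH4, and at 964, 514, 744 and 937 CPM in FL1 to FL4. FL2 was the lowest of all 16 sows. The means were 2237 ± 732 CPM in LL, 1988 ± 810 in LH, 1054 ± 230 in FH and 790 ± 208 in FL (SD, n = 4), and each group overlapped its neighbours in this order.

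miR-152 varied least. Its level was 5545, 5579, 6362 and 4687 CPM in LH1 to LH4, and 8241, 8166, 7370 and 4876 CPM in LL1 to LL4. In LL 3 of 4 sows lay above every LH sow, and LL4 lay within LH. In the follicular phase it was at 7512, 7472, 5872 and 7593 CPM in FH1 to FH4, and at 5707, 7166, 7428 and 6113 CPM in FL1 to FL4. The means were 7163 ± 1575 CPM in LL, 7112 ± 828 in FH, 6603 ± 825 in FL and 5543 ± 684 in LH (SD, n = 4), and all neighbours in this order overlapped. The coefficient of variation within a group was 11.6 to 22% for miR-152, against 17.1 to 84.5% for miR-148a and 21.8 to 40.8% for miR-148b.

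**Figure D2:**
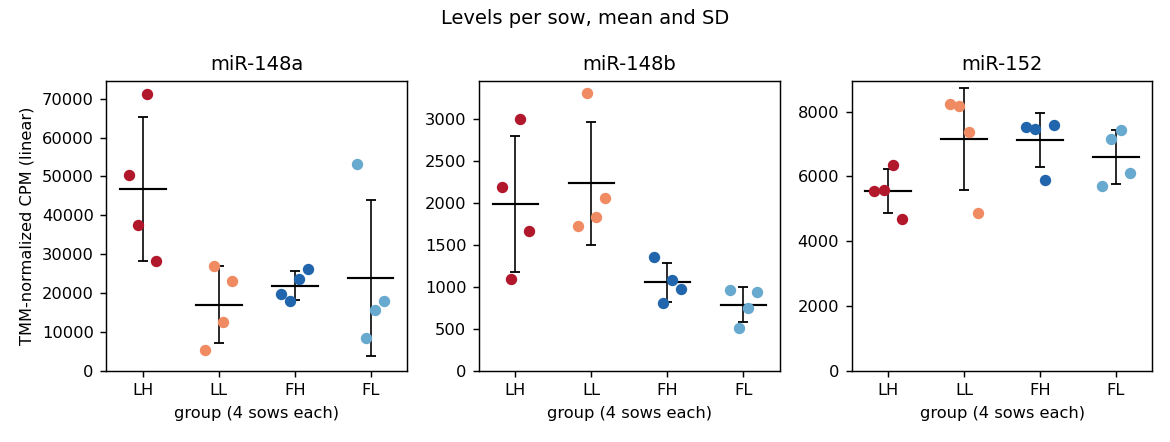
Each point is a sow, the horizontal lines are group means and the bars are SD (n = 4), with TMM-normalized CPM on linear vertical axes and the 4 groups along the horizontal axes. For miR-148a all 4 LL sows (5244 to 27082 CPM) lie below all 4 LH sows (28360 to 71186 CPM), and FL1 (53301 CPM) stands above the other FL sows.

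In LH vs. LL miR-148a was lower in the low fecundity sows, and miR-148b and miR-152 did not pass the threshold. The study called a miRNA where the fold change was at least 1 on the log2 scale in either direction and P, not adjusted, was under 0.05. By edgeR's quasi-likelihood test, the log2 fold change of LL over LH was -1.43 for miR-148a (SE 0.497), which passed this threshold, and the adjusted p over the 362 miRNAs tested was 0.244. By the same test the log2 fold change was 0.21 for miR-148b (SE 0.333, adjusted p = 0.784) and 0.40 for miR-152 (SE 0.224, adjusted p = 0.405). So 1 of 3 members was called, beside 47 of 362 miRNAs in either direction (13.0%) and 23 that were lower in LL (6.35%). By edgeR's adjusted p under 0.05, 0 of 3 members were called, beside 3 of all miRNAs (0.829%). At P under 0.05 without adjustment this was 1 of 3 members and 65 of all miRNAs, and DESeq2 gave miR-148a a log2 fold change of -1.47 and an adjusted p of 0.0590.

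The exact two-sided permutation test of mean log2(CPM + 1) gave a difference of -1.63 for miR-148a (p = 0.0286, the smallest that 4 against 4 sows allow). It gave 0.22 for miR-148b (exact p = 0.6) and 0.35 for miR-152 (exact p = 0.114). The CPM of LH and LL did not overlap for 1 of 3 members, and this was so for 13.3% of the 445 miRNAs tested in all 16 libraries.

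The fold change of miR-148a depended on how the libraries were scaled. As plain shares of the library, miR-148a was 2.59 to 6.05% in LH and 0.912 to 3.71% in LL, and these ranges overlap. With library size only, the log2 fold change was -0.91 (adjusted p = 0.277 by edgeR), short of the threshold, while that of miR-152 was 1.03 (adjusted p = 0.0977 by edgeR) and passed it. This scaling moved the median of all tested miRNAs from 0.15 to 0.73, and the calls from 24 higher and 23 lower to 57 higher and 11 lower. Relative to the median of all miRNAs, miR-148a stood at -1.58 with TMM and at -1.65 with library size only, miR-148b at 0.06 and 0.05, and miR-152 at 0.25 and 0.30.

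Other values moved with LH and LL as well. The summed level of 5 skeletal and cardiac muscle miRNAs (miR-1, miR-133a, miR-133b, miR-206 and miR-499) was 2155 to 3254 CPM in LH and 449.2 to 984 CPM in LL. Most of this sum was miR-1, with 1965 to 2747 CPM in LH and 234.0 to 729 CPM in LL, while miR-499 went the other way, with 56.7 to 126.7 CPM in LH and 136.7 to 154.4 CPM in LL. The summed level of 2 smooth muscle miRNAs (miR-143 and miR-145) was 111488 to 212844 CPM in LH and 71951 to 91143 CPM in LL. The ranges of LH and LL overlapped for neither sum, and none of these rows was at 0 in all libraries. The ranges did overlap for the markers of gonad, liver, erythrocytes, leukocytes, ciliated or tubal epithelium, neural tissue, pancreas and endothelium. Of single miRNAs, 13.3% of the 445 did not overlap between LH and LL. The part of tissue composition in the fold change of miR-148a was not tested, and in whole ovaries fewer cells of a type and less RNA per cell cannot be told apart. Leaving out each sow in turn gave log2 fold changes of -1.83 to -1.21 for miR-148a. Without LH3 (-1.22) and without LL3 (-1.41) edgeR's unadjusted P was over 0.05 and the threshold was missed. It was also missed after adjustment for the clean read share (-0.76, adjusted p = 0.770 by edgeR), with a replicate block (-1.60, adjusted p = 0.394) and with parity as a covariate (-1.64, SE 1.17, adjusted p = 0.588). In the study's records every LH sow was of higher parity than any LL sow. For the levels and the ratios in LH vs. LL, parity and fecundity thus cannot be told apart.

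In FH vs. FL no member passed the threshold. By edgeR the log2 fold change of FL over FH was 0.22 for miR-148a (SE 0.614, adjusted p = 0.903), -0.44 for miR-148b (SE 0.313, adjusted p = 0.704) and -0.15 for miR-152 (SE 0.189, adjusted p = 0.797). The threshold called 0 of 3 members beside 19 of 307 miRNAs (6.19%), and the adjusted p called 0 beside 2 (0.651%). At P under 0.05 without adjustment edgeR called 0 of 3 members and 22 miRNAs. The exact permutation test of log2(CPM + 1) gave -0.20 for miR-148a (p = 0.686), -0.43 for miR-148b (p = 0.143) and -0.11 for miR-152 (p = 0.286).

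For miR-148a the sign in FH vs. FL turned without FL1 and with a replicate block (-0.30). The fitted fold change is positive and the difference of mean log2 values negative, and without FL1 the fitted value was -0.69 (adjusted p = 0.282 by edgeR). Without FL2 and FL4, which stood apart in miR-34c, it was 0.81 (adjusted p = 0.983 by edgeR). The CPM of FH and FL overlapped for all 3 members, and 2.25% of the 445 miRNAs did not overlap.

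**Figure D3:**
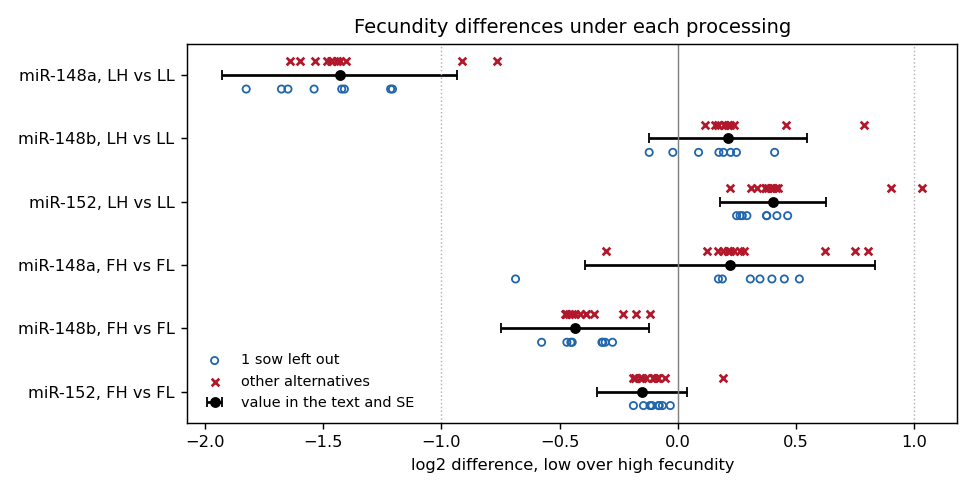
The log2 difference of low over high fecundity (horizontal axis) is given for each member and phase, with the value in the text and its SE in black, values with 1 sow left out as open circles and other processing alternatives as crosses. miR-148a in LH vs. LL stays below 0 throughout (-1.83 to -0.76), while miR-148a in FH vs. FL falls on both sides of 0 (-0.69 to 0.81).

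Whether the fecundity difference was unequal in the luteal and the follicular phase was tested as an interaction in a model of all 16 libraries. The interaction equals the luteal less follicular difference of low fecundity sows less that of high fecundity sows. It thus draws on the phase levels that the family was proposed on, and its p are not independent of that choice. The difference of log2 fold changes, luteal less follicular, was -1.58 for miR-148a (SE 0.774, adjusted p = 0.339 by edgeR). It was 0.59 for miR-148b (SE 0.458, adjusted p = 0.645) and 0.48 for miR-152 (SE 0.271, adjusted p = 0.442). So 0 of 3 members passed the threshold, which 13.3% of the 445 miRNAs did, and for miR-148a a difference between the phases was not shown. Without FL1 the value of miR-148a was -0.75 (adjusted p = 0.652 by edgeR). It passed the threshold without LH4 (-1.86), LL2 (-1.94), FL2 (-1.98) or FL3 (-1.91), after adjustment for the clean read share (-1.57), without a filter (-1.66) and with identical entries collapsed (-1.73), with adjusted p of 0.162 to 0.440 by edgeR. Leaving out the libraries that stood apart in miR-34c (LH4, FL2 and FL4) gave -2.39 (adjusted p = 0.451 by edgeR) for miR-148a, past the threshold. This left FL with FL1 and FL3 alone.

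Ratios of members within a library need no scaling between libraries. miR-148a had 23.0, 34.3, 23.7 and 17.0 counts per count of miR-148b in LH1 to LH4, and 3.03, 8.17, 6.90 and 11.1 in LL1 to LL4. The ranges did not overlap, with LL1 the lowest. The mean log2 ratio was 1.85 lower in LL than in LH, or 3.6-fold (exact two-sided permutation test, p = 0.0286, adjusted p = 0.0857 over the 6 ratio tests).

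Against miR-152, miR-148a had 9.08, 6.74, 11.2 and 6.05 counts per count in LH1 to LH4, and 0.636, 3.32, 1.72 and 4.71 in LL1 to LL4. This ratio was lower in all 4 LL sows than in any LH sow. The log2 difference was -1.98, or 3.94-fold (exact p = 0.0286, adjusted p = 0.0857). Both ratios have miR-148a as the numerator, and its CPM did not overlap between LH and LL. They are therefore not separate observations, and ratios of other miRNAs were not examined. The ratio of miR-148b to miR-152 was 0.196 to 0.472 in LH and 0.210 to 0.423 in LL, and its difference was within the spread between sows (-0.13 on the log2 scale, exact p = 0.829).

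In the follicular phase none of the ratios differed beyond the spread between sows. miR-148a over miR-148b was 14.6 to 27.04 in FH and 16.2 to 55.3 in FL (exact p = 0.771), where 55.3 is FL1. The ratio of miR-148a to miR-152 was 2.40 to 4.02 in FH and 1.16 to 9.34 in FL (exact p = 0.886). For miR-148b over miR-152 the values were 0.108 to 0.185 in FH and 0.0718 to 0.169 in FL (exact p = 0.4). All 8 follicular values of this last ratio lay below the lowest of the 8 luteal ones, by a narrow margin (FH3 0.185, LH2 0.196). Across the phases this is a description without a test, and pairs of other miRNAs were not examined.

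**Figure D4:**
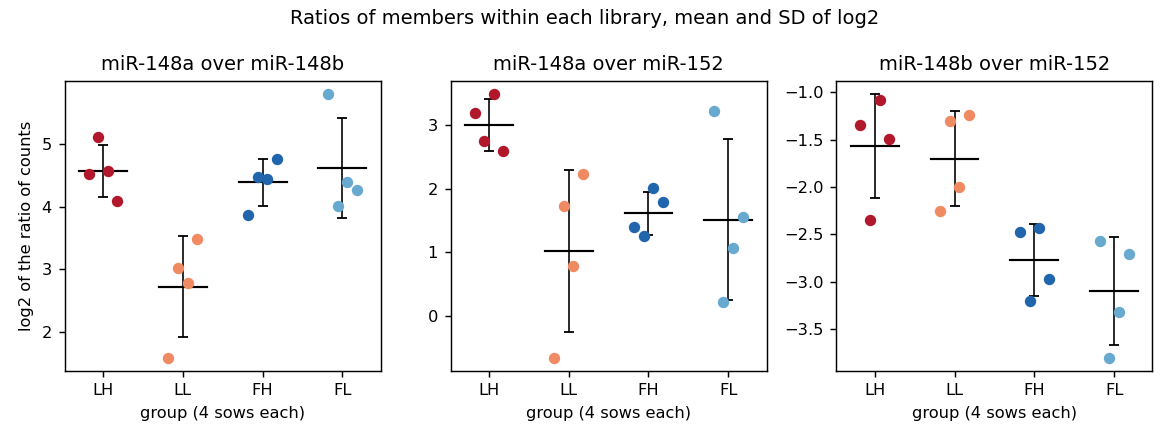
Each point is the log2 of the ratio of counts of a pair of members in 1 library, with group means and SD (n = 4). The ratios of miR-148a to miR-148b and of miR-148a to miR-152 are lower in all 4 LL libraries than in any LH library. By a narrow margin, miR-148b over miR-152 is higher in every luteal than in every follicular library.

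Across the phases the members did not move alike, and these values are the ones that the family was proposed on. In high fecundity sows miR-148a was 1.10 higher (log2, SE 0.550) in the luteal than in the follicular phase, miR-148b 0.92 higher (SE 0.326) and miR-152 at -0.36 (SE 0.191), while the median of all 445 miRNAs was 0.25. The CPM did not overlap for miR-148a alone of the members, and all 4 LH sows lay above the highest FH sow, FH4. Over all miRNAs 8.99% did not overlap. For miR-148b 3 of 4 LH sows lay above the highest FH sow, and LH2 lay within FH. In the other direction, 3 of 4 LH sows lay below the lowest FH sow for miR-152, and LH3 lay within FH.

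In low fecundity sows the difference of LL over FL was -0.48 for miR-148a (SE 0.545), 1.502 for miR-148b (SE 0.330) and 0.12 for miR-152 (SE 0.191), beside a median of 0.13. The CPM did not overlap for miR-148b alone, whose 4 LL sows, at 1733 to 3316 CPM, lay above the highest FL sow at 964 CPM. Over all miRNAs 22.9% did not overlap in this comparison. For miR-148a the sign turned to 0.34 without FL1. With library size only it was 0.16, and this scaling moved the median of all miRNAs by 0.53, so that miR-148a stood at -0.50 relative to that median. The same scaling gave 2.08 for miR-148b and 0.73 for miR-152 in low fecundity sows, and -0.12 for miR-152 in high fecundity sows.

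Among 165 known miRNAs with a mean of at least 10 CPM, those with the pattern most like a member's were found by Pearson's r of log2(CPM + 1) over the 16 libraries. The points share libraries, groups and scaling, and r is a description only. For miR-148b these were miR-21 (r = 0.939), miR-340 (0.930), miR-32 (0.928), miR-30d (0.894) and miR-532-5p (0.868). By Spearman's rho miR-32 ranked 1 (0.944) and miR-21 ranked 8 (0.871). miR-21 is among the most abundant miRNAs of these ovaries, with 153926 ± 117734 CPM in LH and 181579 ± 26785 in LL, against 52174 ± 27976 in FH and 36407 ± 6882 in FL (SD, n = 4). LH2 had 29900 CPM of miR-21, within the follicular range, and was also the lowest luteal sow for miR-148b. With the group means removed, r between miR-148b and miR-21 was 0.846. The level of miR-148b also correlated with the summed gonad markers miR-202 and miR-383 (r = 0.824) and with the endothelial miR-126 (r = 0.709). The gonad sum was nearly all miR-202. miR-383 was highest in FL4 (5.88 CPM), where miR-202 was lowest (64.5 CPM). The correlation was negative for the summed smooth muscle miRNAs (r = -0.664) and liver miRNAs (r = -0.583). The other marker sets examined had r of -0.546 (pancreas) to 0.255 (erythrocytes). The part of these tissues in the level of miR-148b was not tested.

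**Figure D5:**
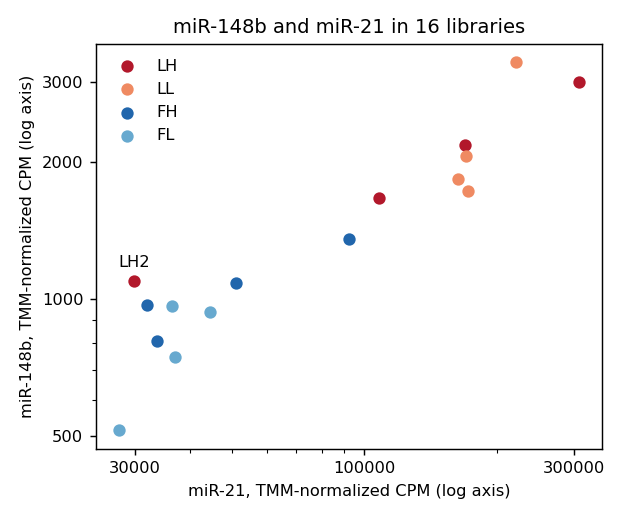
TMM-normalized CPM of miR-148b (vertical) and miR-21 (horizontal), both on log axes, with a point for each of the 16 libraries. LL and 3 LH libraries lie at the upper right, and LH2, with 29900 CPM of miR-21 and 1096 CPM of miR-148b, lies among the follicular libraries.

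The miRNAs most like miR-148a were let-7e (r = 0.866), miR-1271 (0.834), let-7g (0.807), let-7f (0.796) and miR-455-5p (0.755). let-7e had 1367 ± 268 CPM in LH and 942 ± 224 in LL, and 1143 ± 190 in FH against 914 ± 249 in FL (SD, n = 4), the same order of the luteal groups as miR-148a. Within groups r with let-7f was 0.905. miR-148a had r = 0.646 with the summed skeletal and cardiac muscle miRNAs and -0.524 with the summed leukocyte miRNAs miR-142, miR-150 and miR-155. With the remaining marker sets r was -0.258 to 0.341. For miR-152 the values were lower, with miR-324 (r = 0.685), miR-652 (0.524), miR-491 (0.478), miR-7134-5p (0.464) and miR-769-5p (0.443). miR-324 had 7.04 ± 1.70 CPM in LH and 13.88 ± 2.72 in LL (SD, n = 4). Between the members, r was 0.365 for miR-148a and miR-148b (0.662 with the group means removed), -0.531 for miR-148a and miR-152 (-0.316) and -0.112 for miR-148b and miR-152 (0.0384).

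Other miRNAs known to act on the same target genes were described beside the family. Of 15 miRNAs that act on cholesterol and lipoprotein genes 9 were in the table, and all 9 were tested. In LH vs. LL, miR-185 was higher in LL and miR-26a lower, 7 did not pass the threshold, and 13.0% of all miRNAs were called. The median log2 fold change of the 9 was -0.13, beside 0.15 for all miRNAs. miR-185, which targets the scavenger receptor SCARB1, had 477 ± 158 CPM in LH and 1305 ± 404 in LL (log2 fold change 1.48, adjusted p = 0.122 by edgeR). miR-26a had 62078 ± 24524 CPM in LH and 28789 ± 14112 in LL (-1.11, adjusted p = 0.253 by edgeR). The liver miRNA miR-122 was at 47.6 ± 48.9 CPM in LH and 8.48 ± 13.1 in LL, and missed the threshold (adjusted p = 0.405 by edgeR).

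In FH vs. FL miR-122 was the 1 miRNA of this list that passed, at 446 ± 620 CPM in FL against 21.4 ± 18.9 CPM in FH (4.35 on the log2 scale, adjusted p = 0.585 by edgeR). Over all miRNAs 6.19% were called. Within FL, miR-122 was at 30.1, 1363, 277 and 113 CPM in FL1 to FL4, and the other liver miRNA measured, miR-885-5p, was at 0.326, 25.5, 0.570 and 61.8 CPM. FL2 and FL4, the high libraries for miR-885-5p, are the FL libraries that stood apart in miR-34c. The median of the list was -0.07, beside 0.12 for all miRNAs. In the same comparison miR-27b-5p (-0.71, adjusted p = 0.678 by edgeR) and miR-144 (0.95, adjusted p = 0.701) missed the threshold.

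Of 7 miRNAs known to act on DNA methyltransferases or their partners, 6 were tested. In LH vs. LL 1 was higher, again miR-185, 0 were lower, beside 13.0% called over all miRNAs, and the median log2 fold change was -0.73, beside 0.15 for all miRNAs. miR-143, whose arms have the same counts, had 143048 ± 41507 CPM in LH and 73845 ± 6438 in LL (-0.94, adjusted p = 0.170 by edgeR), and miR-29b had 200.4 ± 71.0 CPM and 105.9 ± 10.9 (-0.90, adjusted p = 0.253). Both missed the fold threshold. In FH vs. FL 0 of the 6 were called, beside 6.19% of all miRNAs, and the median was -0.35, with the smallest P for miR-101 (-0.60), miR-185 (0.63) and miR-143 (-0.49). By edgeR's adjusted p 0 miRNAs of either list were called in either comparison.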

How the data were processed

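The authors trimmed adapters and poor reads, mapped to the pig genome and predicted further miRNAs. Per the submitters' processing notes the tools included Bowtie2 2.1.0 and the build was Sscrofa10.2. They deposited raw counts, the number of reads per miRNA and library, without normalization; how a read was assigned to an arm is not given in the sources used here. In R 4.3.3, edgeR 4.0.16 (quasi-likelihood test, TMM, filterByExpr with min.count 10 and min.total.count 15, Benjamini-Hochberg adjustment over all miRNAs tested) was fitted on the whole table for LH vs. LL, FH vs. FL and, with all 16 libraries, the interaction and the phases. The SE printed for a log2 difference is its size divided by the square root of edgeR's quasi-likelihood F, also for the phases. DESeq2 1.42.0, other scalings and filters, covariates and leaving out each sow were alternatives. Leaving out the libraries with miR-34c above 1000 CPM was chosen after seeing the data. The edgeR fits of LH vs. LL, FH vs. FL and the interaction were tested on simulated data. Where a library has 0 counts the limit is 3 counts.

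The members and lists were chosen with earlier results of these data known. The named miRNAs are the members, predicted entries with the family seed, the 5 known miRNAs with the highest r for each member, and up to 3 with the smallest P in each list and comparison. The seed was to be read from RefSeq mature sequences; the seed used is background knowledge and was searched, on the given strand, in the mature sequences of the study's list of predicted miRNAs, whose starts were counted from 0 and are printed counted from 1. Libraries with the same replicate number did not deviate from their group means together (r = -0.19 to 0.201), and the numbers were not taken as pairs. The labels give each library as a sample of its own, and the study's methods describe separate sows. Differences of CPM between miRNAs can also reflect unequal efficiency of library preparation.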

Additional observations from a re-analysis of the deposited data

Results flagged for a closer look

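The level of miR-152 in FH3 was 5872 CPM, below the 7472 to 7593 CPM of the other 3 FH sows, which lay within a narrow range. The gap to its nearest neighbour was above Dixon's 95% critical value. Levels and ratios in 24 groups of 4 sows were examined in this way, and chance alone marks about 1 in 20.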

How the results depend on the processing

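In LH vs. LL the log2 fold change of miR-148a stayed negative under every alternative run. It missed the threshold with library size only (-0.91), with a replicate block (-1.60, adjusted p = 0.394 by edgeR) and after adjustment for the clean read share (-0.76, adjusted p = 0.770). It was also missed after adjustment for parity (-1.64, SE 1.17, adjusted p = 0.588 by edgeR), which separates LH from LL, so that this fit cannot tell parity and fecundity apart. Leaving out 1 sow gave -1.83 to -1.21. With library size only miR-152 passed it (1.03), and in FH vs. FL miR-152 turned to 0.19. Leaving out 1 sow gave -0.12 to 0.41 for miR-148b in LH vs. LL, negative without LH2 or LL2, and -0.69 to 0.51 for miR-148a in FH vs. FL, which the replicate block also turned (-0.30). The block changed no other member's call in the fecundity comparisons. The interaction of miR-148a passed the threshold without a filter (-1.66), with identical entries collapsed (-1.73), with the clean read share (-1.57), and leaving out LH4, FL2 and FL4 (-2.39), and ranged from -1.98 to -0.75 when 1 sow was left out, passing without LH4, LL2, FL2 or FL3. The phase difference of miR-148a in low fecundity sows turned with library size only (0.16), and ranged from -0.89 to 0.34 with 1 sow left out. Leaving out 1 sow gave log2 ratio differences in LH vs. LL of -2.10 to -1.47 for miR-148a over miR-148b, -2.38 to -1.42 for miR-148a over miR-152 and -0.39 to 0.051 for miR-148b over miR-152, and in FH vs. FL of -0.16 to 0.43, -0.67 to 0.34 and -0.50 to -0.09. The smallest exact p is then 0.0571. The calls in LH vs. LL went from 47 to 158 without a filter, to 14 with the clean read share and to 33 to 94 with 1 sow left out. Those in FH vs. FL went from 19 to 93 without a filter, 37 in the fit of all libraries, 4 with the block, 5 with parity, 6 with the clean read share, 7 leaving out FL2 and FL4, and 11 to 43 with 1 sow left out. The cause of these changes was not tested. With Spearman's rho, 4 of the 5 miRNAs most like each member were shared. Those not shared were miR-455-5p for miR-148a, miR-21 for miR-148b and miR-7134-5p for miR-152. Depth did not limit the members, each with at least 5277 counts in a library.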
